A study of Homo sapiens with 4 samples.

Results

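Mitochondria form a network that is joined by fusion, cut by fission and cleared in part by mitophagy, the selective autophagy of mitochondria. The 10 genes described here are the core of those processes: MFN1, MFN2 and OPA1 for fusion, DNM1L, FIS1 and MFF for fission, and PINK1, BNIP3, BNIP3L and FUNDC1 for mitophagy. They were chosen by symbol, and all 10 were found among the 16057 genes of the deposited table, 1 row each. The cells were MM.1S, an established human multiple myeloma line, treated with 350 nM JG342, which inhibits HSP70 chaperones allosterically, or with its solvent DMSO, and collected after 26 h. Each treatment had 2 libraries, described as biological duplicates and numbered 1 and 2. There is no untreated group and 1 dose at 1 time, so no dose or time course can be read from these values. The study's title names mitochondrial protein homeostasis, and the comparison asks which of these transcripts differ between JG342 and DMSO.

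The outer membranes of neighbouring mitochondria are joined by the mitofusins MFN1 and MFN2, and the inner membranes by OPA1, which the proteases OMA1 and YME1L1 cleave. Fission is carried out by DNM1L (also called DRP1), a cytosolic dynamin that assembles on the outer membrane at receptors such as MFF and FIS1. PINK1 is a kinase that builds up on damaged mitochondria and starts the ubiquitin marking that autophagy receptors read, whereas BNIP3, BNIP3L (NIX) and FUNDC1 are outer-membrane receptors that bind the autophagosome directly. BNIP3 and BNIP3L are known targets of the hypoxia-inducible factor HIF1.

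Sequence just upstream of the gene start is shown for the mitofusins, of which MFN1 passed the test below and MFN2 did not, and for BNIP3, whose level was the lowest. RefSeq promoter windows (GRCh38.p14, 250 bases before to 50 after the annotated start) were found for 8 of the 10 genes; PINK1 and BNIP3L were not matched. Only part of each window is printed: chr3:179347459-179347691 on the plus strand for MFN1, chr10:131982014-131982173 on the minus strand for BNIP3, and chr1:11980373-11980401 on the plus strand for MFN2. The MFN2 window holds TGACG at −59 and at −4 from the start, and the printed stretch shows the first of these. The MFN1 and BNIP3 stretches lie upstream of the annotated exons of those genes in GENCODE 29, and the 29 bases of MFN2 overlap an annotated exon of MFN2. Capitals mark TGACG, the CRE half-site core read by CREB and ATF factors, on either strand in the mitofusins, and CACGTG, an E-box that contains the ACGTG core of the hypoxia element, in BNIP3.
MFN1: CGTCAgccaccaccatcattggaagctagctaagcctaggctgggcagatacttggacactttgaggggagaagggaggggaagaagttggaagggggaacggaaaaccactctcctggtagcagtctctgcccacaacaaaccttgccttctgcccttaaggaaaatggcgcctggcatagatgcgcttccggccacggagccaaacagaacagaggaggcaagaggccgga
MFN2: tgaggcgactggTGACGcgcttatccact
BNIP3: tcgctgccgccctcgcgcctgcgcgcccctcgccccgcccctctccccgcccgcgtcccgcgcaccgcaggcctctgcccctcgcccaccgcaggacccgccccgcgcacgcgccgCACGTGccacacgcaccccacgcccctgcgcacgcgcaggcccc

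Searched on both strands, TGACG occurred in the windows of 4 of the 8 genes (MFN1, MFN2, OPA1 and MFF), against 24.6% of all 35116 promoter windows. CACGTG occurred in BNIP3 alone among the 8, 134 bases before the start, against 7.26% of all windows. The ATF4 composite element TGATGNAA and the heat shock element GAANNTTC occurred in none of the 8 windows, against 3.62% and 6.77% of all windows. These are matches of letters, and nothing was measured here about binding.

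The deposited values are in TPM, which corrects read numbers for the length of the transcript and for the size of the library, and their totals lay between 994463 and 994718 per library. Depth is not recorded in TPM; an estimate from the steps between low values gave between 8610000 and 9580000 reads per library, with JG342 replicate 1 the shallowest and JG342 replicate 2 the deepest. All 9 plasma cell markers checked, SDC1, XBP1 and IRF4 among them, were at or above 1 TPM in all 4 libraries. Of 12 markers of T cells, monocytes, fibroblasts, epithelium and red cells in the table, 7 stayed under 1 TPM throughout, and the highest of the others, LYZ, lay between 36.96 and 46.16 TPM with overlapping treatments. HBB was 8.19 and 7.34 TPM in DMSO and 10.95 and 11.36 TPM in JG342, while HBA1, another red cell marker, was at 0 in both JG342 libraries. These are bulk samples, so a change in RNA per cell and a change in the share of cells that express a gene cannot be told apart. Differences were tested with limma on log2(TPM + 1) over the 12042 genes that averaged 1 TPM or more, which included all 10 members. An adjusted p (Benjamini-Hochberg, over all fitted genes) under 0.05 is called a rise or a fall below.

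MFN1 and PINK1 rose after JG342, and none of the 10 genes fell at that threshold in this limma fit; at an unadjusted p under 0.05 the count of lower genes was 1, DNM1L. The 2 risen genes among 10 stand beside 18.4% of all fitted genes called in either direction, 10.8% higher and 7.62% lower, so the members were called about as often as genes in general. The median log2 fold change of the 10 was 0.13, against 0.03 over all fitted genes, and became 0.06 against −0.03 after the libraries were scaled to equal medians. In the unscaled fit 7 of the 10 were above 0, as were 6446 of the 12042 fitted genes. The values of the 2 treatments did not overlap for 6 of the 10, 4 of them higher and 2 lower after JG342, beside 62.1% of all fitted genes. With 2 libraries per treatment an exact permutation test of a single gene cannot go below a two-sided p of 0.333, so the tests rest on the variance that limma shares across genes.

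**Figure D1:**
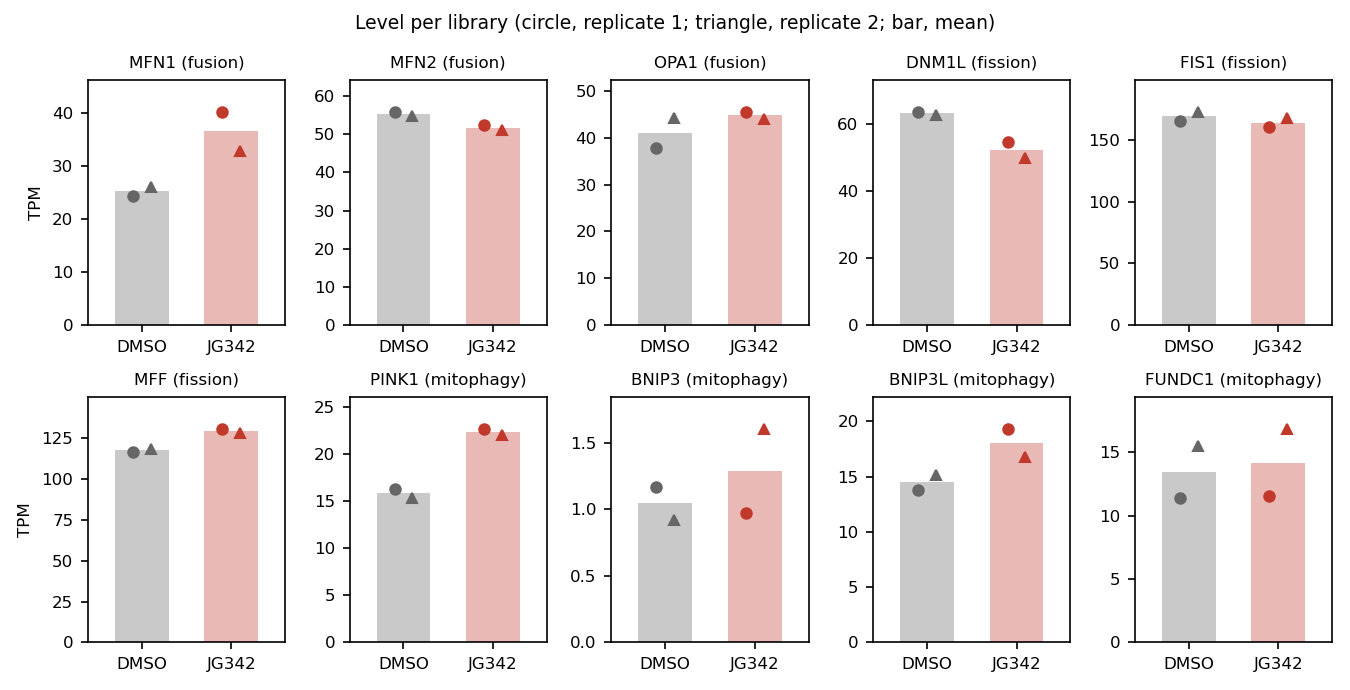
Level of each of the 10 genes in TPM (vertical axes from 0, each with its own scale) in the DMSO and JG342 libraries; circles are replicate 1, triangles replicate 2, and bars the mean of 2. MFN1 (24.3 and 26.11 against 40.17 and 32.84 TPM) and PINK1 (16.3 and 15.37 against 22.65 and 22.01 TPM) are higher in both JG342 libraries, while FUNDC1 follows the replicate number.

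The order of the mean levels was the same in both treatments. In DMSO the fission receptors FIS1 and MFF were highest, at means of 169 and 117 TPM, followed by DNM1L (63.1 TPM), MFN2 (55.4 TPM), OPA1 (41.0 TPM) and MFN1 (25.2 TPM). PINK1, BNIP3L and FUNDC1 lay between 13.4 and 15.8 TPM, and BNIP3 at 1.04 TPM. By its mean over the 4 libraries (1.165 TPM), BNIP3 stood above 1.46% of the fitted genes only. Among neighbours in this order, the range of the FUNDC1 libraries overlapped those of BNIP3L and PINK1, and no other neighbours overlapped. After JG342, DNM1L (52.2 TPM) and MFN2 (51.7 TPM) overlapped, and so did BNIP3L and FUNDC1.

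Among the fusion genes, MFN1 (NM_033540) was the one that passed. Its level was 24.3 and 26.11 TPM in DMSO replicates 1 and 2 and 40.17 and 32.84 TPM in JG342 replicates 1 and 2. Both JG342 libraries were above both DMSO libraries, and the 2 JG342 libraries differed more from each other than the 2 DMSO libraries did. The rise was 0.51 ± 0.13 (SE, n = 2 per treatment) on the log2(TPM + 1) scale, a fold of 1.43 (limma adjusted p 0.0281), with 0.70 in the pair numbered 1 and 0.32 in the pair numbered 2. It missed the threshold without the filter on low values (limma adjusted p 0.0925) and without the mean-variance trend (limma adjusted p 0.0614). It also missed it when DMSO replicate 1, DMSO replicate 2 or JG342 replicate 1 was left out (limma adjusted p 0.137, 0.0961 and 0.129, log2 fold change 0.46, 0.56 and 0.37). The processed pseudogenes AL118496.1 and AL451142.2 match 25.2% and 40.8% of the MFN1 transcript at 94.7% and 85.3% identity, so some reads could be shared.

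MFN2 (NM_001127660), the more abundant mitofusin, was 55.84 and 54.91 TPM with DMSO and 52.32 and 51.01 TPM with JG342. The JG342 libraries were the lower ones, by little, and the difference of −0.10 on the log2 scale did not pass (95% interval −0.33 to 0.13, limma adjusted p 0.536). Since TPM is a level per length, the paralogs can be set against each other within a library. That ratio does not change when all genes of a library are scaled by a common factor, although quantile normalization can change it. MFN1 stood at 0.435 and 0.476 of the MFN2 level in the DMSO libraries and at 0.768 and 0.644 in the JG342 libraries. The ratio was higher in both JG342 libraries; a difference between the mitofusins in their change was not tested beyond the permutation limit given above. The summed mitofusin level was 80.1 and 81.0 TPM in DMSO and 92.5 and 83.8 TPM in JG342.

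OPA1 (NM_001354663), the inner-membrane fusion dynamin, was 37.78 and 44.27 TPM in DMSO and 45.5 and 44.03 TPM in JG342. DMSO replicate 2 was as high as the JG342 libraries, so the treatments overlapped, and the difference of 0.13 did not pass (95% interval −0.14 to 0.39, limma adjusted p 0.483). The value of OPA1 is a single number per library, so its splice forms and its cleaved proteins were not measured.

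No fission gene among the members passed. DNM1L (NM_001278463), the dynamin that constricts the organelle, was 63.51 and 62.64 TPM in DMSO and 54.67 and 49.81 TPM in JG342. Both JG342 libraries were lower, and the log2 difference of −0.27 ± 0.10 (SE, n = 2 per treatment) did not pass (95% interval −0.51 to −0.03, limma adjusted p 0.107). It passed after scaling the libraries to equal medians (−0.34, limma adjusted p 0.0482), in the fit blocked on the replicate number (0.0298), and with both changes (0.0132). In those 3 fits 9.97%, 15.7% and 19.2% of all genes were called lower, 8.02%, 19.2% and 13.9% higher, and 18.0%, 34.9% and 33.1% in all.

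FIS1 (NM_016068), an outer-membrane receptor, was 165.4 and 172.56 TPM in DMSO and 160.73 and 167.33 TPM in JG342. The treatments overlapped, and the difference was −0.04 (95% interval −0.25 to 0.16, limma adjusted p 0.785). MFF (NM_001277061), the receptor that recruits DNM1L, was 116.17 and 118.46 TPM in DMSO and 130.28 and 128.04 TPM in JG342. The JG342 libraries of MFF were both higher, and the difference of 0.14 did not pass (95% interval −0.07 to 0.35, limma adjusted p 0.330). The pseudogene AC008427.1 matches 20.3% of the MFF transcript at 95.3% identity.

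DNM1L and its receptor MFF thus lay on opposite sides of 0, neither past the threshold in this fit. Within libraries the DNM1L level was 0.547 and 0.529 of the MFF level in DMSO and 0.420 and 0.389 in JG342, lower in both JG342 libraries. The summed TPM of the 3 fusion genes was 0.342 and 0.354 of that of the 3 fission genes in DMSO, and 0.399 and 0.370 in JG342, higher in both JG342 libraries. The fission sum overlapped between treatments (345.08 and 353.66 TPM in DMSO, 345.68 and 345.18 TPM in JG342). MFN1 is part of the fusion sum, so this ratio is not independent of the MFN1 rise. The ratios were chosen after the values had been seen, and 6 were computed. Among single fitted genes 62.1% did not overlap, and no such share was computed for ratios.

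**Figure D2:**
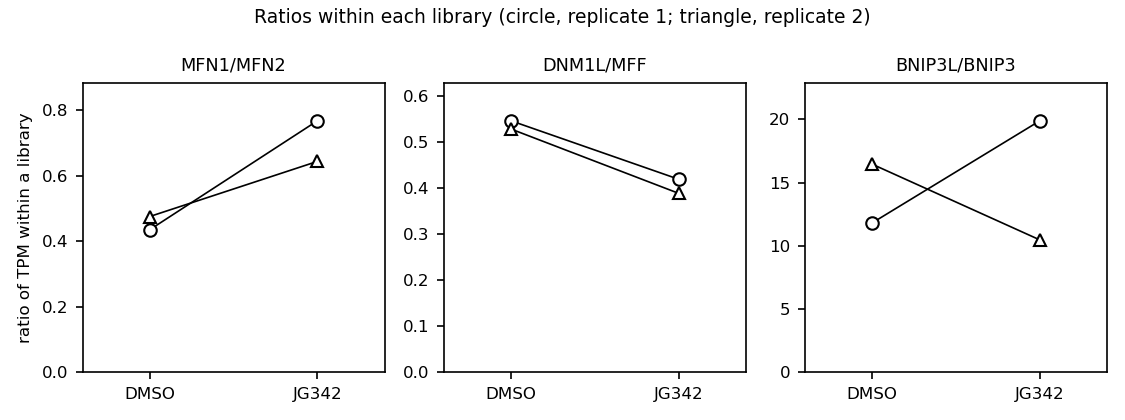
Ratio of the TPM of 2 genes within each library (vertical axes from 0), with lines joining the libraries of the same number (circle, replicate 1; triangle, replicate 2). MFN1 relative to MFN2 was higher in both JG342 libraries, DNM1L relative to MFF was lower in both, and BNIP3L relative to BNIP3 crossed (11.8 and 16.5 in DMSO, 19.9 and 10.5 in JG342).

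Among the mitophagy genes, PINK1 (NM_032409), the kinase that marks damaged mitochondria, rose. Its level was 16.3 and 15.37 TPM in DMSO and 22.65 and 22.01 TPM in JG342. The libraries of each treatment lay close together and the treatments were well apart. The rise was 0.47 ± 0.12 (SE, n = 2 per treatment), a fold of 1.39 (limma adjusted p 0.0297), and the same-numbered pairs gave 0.45 and 0.49. It missed the threshold without the filter on low values (limma adjusted p 0.0722), after quantile normalization (limma adjusted p 0.0535), and when any 1 library was left out (log2 fold change 0.43 to 0.51). Those last limma adjusted p-values were 0.0985 without DMSO replicate 1, 0.169 without DMSO replicate 2, 0.0884 without JG342 replicate 1 and 0.0623 without JG342 replicate 2.

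The PINK1 value carries a limit from overlapping exons. In GENCODE 29 the antisense gene PINK1-AS covers 1907 of the 4836 exonic bases of PINK1 on the opposite strand, and no source used here says that strand was used in counting. If strand was not used, reads in that shared stretch cannot be assigned to one gene or the other. Smaller shares were covered on the opposite strand in BNIP3L (330 of 4307 bases by PNMA2 and 56 by SDAD1P1) and OPA1 (208 of 9052). The same held for DNM1L (202 of 7282) and MFF (48 of 6150).

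BNIP3L (NM_001330491), a mitophagy receptor best known from the clearance of mitochondria in maturing red cells, was 13.82 and 15.14 TPM in DMSO and 19.29 and 16.75 TPM in JG342. Both JG342 libraries were higher, and the difference of 0.30 ± 0.14 (SE, n = 2 per treatment) did not pass (95% interval −0.01 to 0.60, limma adjusted p 0.165). Its paralog BNIP3 (NM_004052) was 1.17 and 0.92 TPM in DMSO and 0.97 and 1.6 TPM in JG342. The highest BNIP3 value was in JG342 replicate 2 and the pairs went opposite ways (−0.14 and 0.44). The difference of 0.15 did not pass (95% interval −0.38 to 0.68, limma adjusted p 0.694). By the approximate step, BNIP3 rested on between 12.1 and 22.7 reads per library, against at least 60.1 for every other member, and 54.8% of its transcript matches the pseudogene BNIP3P1 at 97.8% identity. The interval for BNIP3 includes a difference of the size seen in MFN1.

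FUNDC1 (NM_173794), another outer-membrane receptor, was 11.38 and 15.48 TPM in DMSO and 11.55 and 16.81 TPM in JG342. It was low in both libraries numbered 1 and high in both numbered 2, so the replicate number separated the values and the treatment did not. The difference was 0.07 (95% interval −0.39 to 0.52, limma adjusted p 0.853), and within the pairs it was 0.02 and 0.11. The pseudogenes AP000926.1 and AL391422.1 match 38% and 20.2% of the FUNDC1 transcript at 92.5% and 86.7% identity.

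**Figure D3:**
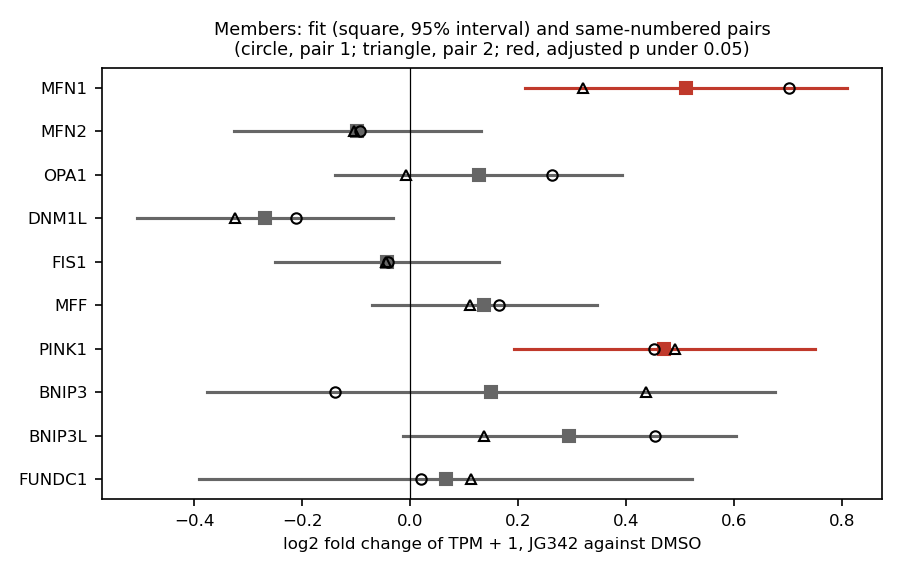
Log2 fold change of TPM + 1 (JG342 against DMSO) for each member: squares with lines are the limma estimate and its 95% interval, open circles and triangles the same-numbered pairs 1 and 2, and red marks an adjusted p under 0.05. MFN1 and PINK1 are red; the pairs of PINK1 lie close together at 0.45 and 0.49, those of MFN1 lie apart at 0.70 and 0.32, and those of BNIP3 lie on both sides of 0.

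The proteins that act around these 10 genes were read from 4 further lists. These lists, like the members and the hypoxia targets below, were chosen with earlier results of these data known. Their counts beside the shares of all fitted genes are therefore a description only. Of 14 genes for fusion and OPA1 processing, 1 fell and none rose in the limma fit, beside 7.62% and 10.8% of all fitted genes, and the list median was −0.04 (−0.11 after median scaling). PHB (NM_001281496), a prohibitin that scaffolds the inner membrane and its proteases, was 247.36 and 267.37 TPM in DMSO and 178.03 and 198.58 TPM in JG342, a fall of −0.45 ± 0.10 SE (limma adjusted p 0.0156). At an unadjusted p under 0.05, LETM1 (−0.35) was also lower and MARCHF5, a ligase of the outer membrane, was higher (0.35); with the replicate block both passed, which made 3 of the 14, beside 34.9% of all genes in that fit. With the block and median scaling PHB and LETM1 passed and MARCHF5 did not. LETM1 also passed after median scaling, after quantile normalization and without the 10 highest genes. The OPA1 protease genes did not pass: OMA1 was at 29.22 and 32.46 TPM in DMSO and 35.99 and 36.25 TPM in JG342 (0.22, limma adjusted p 0.206), and YME1L1 differed by 0.17 (limma adjusted p 0.276). PHB missed the threshold without the filter on low values, without the trend, and when DMSO replicate 1, DMSO replicate 2 or JG342 replicate 1 was left out (limma adjusted p 0.0606, 0.0625, 0.0523, 0.121 and 0.0682).

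Of 19 further fission genes, 18 averaged 1 TPM or more in both treatments; of these 4 fell and 1 rose, beside 7.62% and 10.8% of all fitted genes, and their median was −0.02 (−0.09 after median scaling). With the replicate block 7 were called lower and 1 higher, beside 15.7% and 19.2%. The list was not split by whether a gene promotes or restrains fission, so these counts give no direction for fission. The 4 that fell were CDK1 (NM_001170406; 153.08 and 181.68 TPM against 96.41 and 109.05 TPM, −0.70), which phosphorylates DNM1L in mitosis and is itself a cell cycle gene, INF2 (NM_001031714; −0.64), a formin that builds actin where the endoplasmic reticulum meets mitochondria, AKAP1 (NM_001242902; −0.40), which anchors protein kinase A at the outer membrane, and MTFR2 (NM_001099286; −0.74). Their limma adjusted p-values were 0.00533, 0.0194, 0.0317 and 0.0455. PPP3CA (NM_000944), a catalytic subunit of calcineurin, which dephosphorylates DNM1L, rose by 0.55 ± 0.15 SE (limma adjusted p 0.0384). The remaining gene, SPIRE1 (NM_001128626), an actin nucleator, was 0.75 and 0.96 TPM in DMSO and 3.36 and 4.0 TPM in JG342. It reached the filter only through its JG342 values, so it is named with no test and left out of the counts. CDK1 was called under each alternative run. After median scaling PPP3CA and MTFR2 no longer passed (limma adjusted p 0.0790 and 0.0579). Of the 5 calls, CDK1 alone remained without the filter. Without the trend CDK1 and INF2 remained, and GDAP1 was newly called. Some of the 5 were also lost whichever library was left out. PPP3CA dropped to 0.34 without DMSO replicate 1 (limma adjusted p 0.216), and MTFR2 shrank to −0.44 without DMSO replicate 2 (limma adjusted p 0.280). The adaptors MIEF1 and MIEF2, which recruit DNM1L directly, did not pass.

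Genes of mitophagy signalling and its receptors were mostly above 0. Of 28 genes, 20 were above 0, as were 6446 of the 12042 fitted genes, and the list median was 0.26 (0.19 after median scaling). In the list 5 rose and 2 fell, beside 10.8% and 7.62% of all fitted genes. The treatments did not overlap for 18 genes that were higher and 6 that were lower, beside 34.0% and 28.2% of all fitted genes. OPTN (NM_001008211), an autophagy receptor that reads ubiquitin chains on mitochondria, rose from 47.19 and 41.57 TPM to 90.01 and 84.57 TPM, by 0.96 ± 0.11 SE (limma adjusted p 0.00100). CALCOCO2 (NM_001261390; NDP52), a receptor of the same kind, rose from 48.41 and 44.12 to 74.72 and 67.8 TPM, by 0.61 ± 0.11 SE (limma adjusted p 0.00718). For both genes each JG342 library was far above each DMSO library.

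The other 3 that rose were NIPSNAP2 (NM_001202469), a matrix protein that is displayed on damaged mitochondria (0.55, limma adjusted p 0.00918), the receptor NBR1 (NM_001291571; 0.54, limma adjusted p 0.0112) and the ubiquitin ligase SIAH1 (NM_001006610; 0.56, limma adjusted p 0.0139). The 2 that fell were ATAD3A (NM_001170535), an inner-membrane ATPase, from 97.71 and 94.27 to 63.91 and 65.34 TPM (−0.56, limma adjusted p 0.00602), and VCP (NM_001354927), the segregase that pulls ubiquitinated proteins out of membranes, from 375.48 and 384.62 to 297.88 and 284.92 TPM (−0.38, limma adjusted p 0.0187; named after its values were seen). SQSTM1 (p62; 0.28) and TAX1BP1 (0.31), 2 further receptors, did not pass (limma adjusted p 0.0775 and 0.0660). With the replicate block 15 of the 28 passed, 12 higher and 3 lower, beside 34.9% of all genes. With the block and median scaling 6 were higher and 3 lower, beside 13.9% and 19.2% of all genes. The 7 calls fell to 4 without DMSO replicate 1 and to 3 without DMSO replicate 2, and OPTN and ATAD3A were called under each alternative run. Several receptors of this list also serve other forms of autophagy.

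Of 13 genes of the MICOS complex and its neighbours, which shape the cristae where OPA1 acts, 9 were below 0 with a list median of −0.16 (−0.23 after median scaling), and 1 rose and none fell, beside 10.8% and 7.62% of all fitted genes. CHCHD10 (NM_001301339), a protein of the intermembrane space, rose from 385.66 and 376.92 to 462.46 and 508.06 TPM, by 0.35 ± 0.09 SE (limma adjusted p 0.0324). It missed the threshold without the filter, after median scaling, without the trend, and without DMSO replicate 1, DMSO replicate 2 or JG342 replicate 2 (limma adjusted p 0.0790, 0.103, 0.104, 0.126, 0.181 and 0.132). Short of the adjusted threshold, SAMM50 (57.51 and 67.04 against 50.49 and 48.89 TPM) and APOO (35.66 and 50.14 against 29.83 and 34.0 TPM) were lower at an unadjusted p under 0.05. At the same unadjusted threshold MTX2 (52.5 and 58.64 against 66.64 and 68.35 TPM) was higher. With the replicate block SAMM50, APOO and MTX2 passed beside CHCHD10, making 4 of 13 beside 34.9% of all genes. With the block and median scaling, 5 were called lower, IMMT, the core subunit of MICOS, among them, and 1 higher, beside 19.2% and 13.9%.

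**Figure D4:**
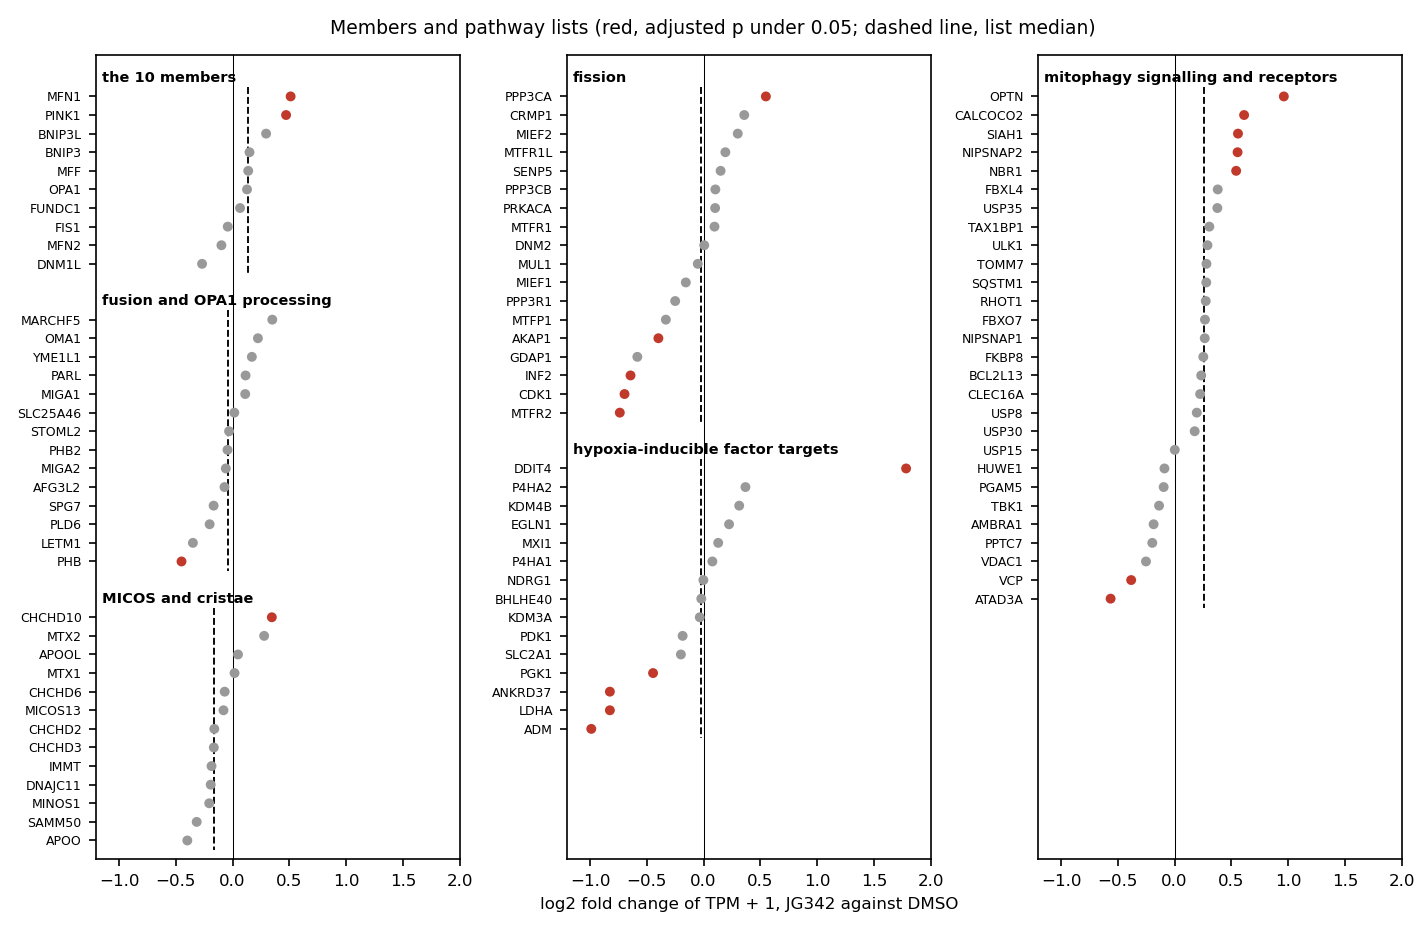
Log2 fold change of TPM + 1 (JG342 against DMSO) of the 10 members and of every gene in the surrounding lists that averaged 1 TPM or more in both treatments, sorted within each list; red marks an adjusted p under 0.05 and dashed lines the list medians. The mitophagy list has its median at 0.26 with OPTN at the top, the MICOS list has its median at −0.16, and the fusion and fission lists have medians near 0.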

How the data were processed

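RNA was profiled in 4 libraries of MM.1S cells. Per the submitters' processing notes, HISAT2 2.0.4, Bowtie2 2.2.5 and RSEM 1.2.12 were used, with no role stated; the genome build, the annotation and any filter are not given in the sources used here. The authors deposited 1 value per gene, taken to be TPM because the libraries sum to nearly the same total (994463 to 994718). TPM is relative to the library total, so a change in abundant transcripts shifts all others. From these values log2(TPM + 1) was computed here and fitted with limma 3.58.1 in R 4.3.3 (lmFit, eBayes with trend), with treatment as the only term, two-sided, for genes that averaged 1 TPM or more. The fit was first run on simulated data in which libraries were independent and the added changes were larger than those of the members. That run does not measure how the fit performs on these 4 libraries. Fold changes on this scale understate those of low genes. The 23 symbols turned into dates were looked up by accession in RefSeq, which restored 22, MARCHF5 among them.

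The members and lists were chosen with earlier results of these data known. By rule the named genes are all members and, per list, up to 6 called genes averaging 5 TPM or more, smallest p first. Other list genes are named outside this rule, with their values known. Among them are VCP, LETM1, MARCHF5, GDAP1, SAMM50, APOO, MTX2 and IMMT. Same-numbered libraries share a prefix in their sample descriptions, and their deviations from the treatment means correlated across genes at r = 0.27, so the number was used as a block in an alternative fit. In that fit the prior was infinite, which sets the variance of a gene by its level alone; with median scaling added the prior was finite (7.49 degrees of freedom). The alternatives were pseudocounts of 0.1 and 0.5, no filter and a filter at 5 TPM, 3 scalings, the block, no trend, and leaving out each library. Near-identical transcripts of the 10 members were searched with BLAST 2.17.0 in GENCODE 29 (at least 85% identity over at least 20% of the transcript). The genes of the lists were not searched in this way. A few genes of the lists are not reported here.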

Additional observations from a re-analysis of the deposited data

How the results depend on the processing

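The 2221 genes called over the whole table became 828 without the filter on low values, 4207 with the replicate block and 3985 with the replicate block and median scaling, and 767 to 1825 when 1 library was left out. Calls for higher genes made up 58.7% of the 2221 and 44.6% of 2166 after median scaling. Of the 10 members, 2 were called in the main fit, beside 2221 of 12042 fitted genes. Without the filter limma called 0 of them, beside 828 of 16057 genes. It called 1 after quantile normalization, beside 2000 of 12042, and 1 without the trend, beside 1508 of 12042. At an unadjusted p under 0.05, 3 members were counted without the filter. The share of all genes at that unadjusted threshold was not computed in any fit. With 1 library left out, the log2 fold change was 0.37 to 0.65 for MFN1 and 0.43 to 0.51 for PINK1. The cause of these differences was not tested. With 1 library left out, its treatment has a single library, which is assumed to vary like the 2 libraries of the other treatment, so those fits are weaker by construction. MFN1 and PINK1 kept their direction under every alternative run, and DNM1L was lower in each. BNIP3 turned to −0.051 without JG342 replicate 2, in a range of −0.051 to 0.35 when 1 library was left out. FUNDC1 turned to −0.028 after quantile normalization, −0.14 without DMSO replicate 1 and −0.19 without JG342 replicate 2, in a range of −0.19 to 0.32. The block changed no other member's call than that of DNM1L. Of the 19 list genes called (SPIRE1 left out), 16 were also called after median scaling, 16 after quantile normalization, 10 without the filter, 12 without the trend and 19 with the block. Without DMSO replicate 1, DMSO replicate 2, JG342 replicate 1 and JG342 replicate 2 in turn, 10, 9, 15 and 14 of them were called. None of the 19 changed sign in these fits. Depth limits BNIP3 most.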

Other observations

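BNIP3 and BNIP3L are textbook targets of hypoxia-inducible factors, and 16 other known targets were in the table, 15 of them fitted. In limma 4 of these fell and 1 rose, beside 7.62% and 10.8% of all fitted genes: ADM, a vasodilator peptide, from 186.86 and 192.1 TPM in DMSO to 96.05 and 93.87 TPM in JG342 (−0.99, limma adjusted p 0.000329), LDHA, which makes lactate, from 1576.33 and 1657.94 to 904.32 and 919.71 TPM (−0.83, limma adjusted p 0.000751), ANKRD37 (−0.83, limma adjusted p 0.00517) and PGK1, a glycolytic kinase (−0.44, limma adjusted p 0.0196). DDIT4, an inhibitor of mTORC1 that is also an ATF4 target, rose by 1.78 (limma adjusted p 0.00181). PGK1 missed the threshold without the filter, after quantile normalization, without the trend, and without DMSO replicate 1, DMSO replicate 2 or JG342 replicate 2 (limma adjusted p 0.0813, 0.0515, 0.0735, 0.0552, 0.153 and 0.0784). The other 4 were called under each alternative run. The list median was −0.02 (−0.08 after median scaling). BNIP3 at 0.15 and BNIP3L at 0.30 did not pass the threshold in either direction. For BNIP3L both JG342 libraries were higher, and the interval of the limma estimate was −0.01 to 0.60. BNIP3 averaged 1.045 TPM in DMSO, where this scale understates fold changes, and its interval was −0.38 to 0.68. Its estimate therefore cannot be set against those of ADM or LDHA, and whether BNIP3 fell was not decided.

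On the log2(TPM + 1) scale MFN1 had the largest estimate of the 10 genes (0.51, against 0.47 for PINK1), although PINK1 exceeded it without DMSO replicate 1 (0.51 against 0.46) and without JG342 replicate 1 (0.45 against 0.37). Over the 4 libraries, the profiles nearest to it among 9813 genes averaging 5 TPM or more, by Euclidean distance of centred log2(TPM + 1), were those of KCNA3 (0.027), DNMT3A (0.036) and OSBPL2 (0.039). KCNA3, a potassium channel, was 11.48 and 12.28 TPM in DMSO and 19.69 and 15.71 TPM in JG342. All 3 shared the higher value in JG342 replicate 1 than in JG342 replicate 2. With 4 libraries such likeness is a description only.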
